A study of Mus musculus with 56 samples.

Results

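Epileptic mice given the low dose of a Csf1R inhibitor were compared with mice that never had epilepsy, to describe what differs from the healthy hippocampus under that dose. The 2 groups were taken from the sample titles: 18 mice made epileptic with pilocarpine and given PLX3397 at 3 mg/kg, and 6 naive mice given vehicle, which together are 24 of the 56 mice of the series. All were male mice of the outbred NMRI strain, adult and older than 12 weeks, and the labels name no engineered allele. Epilepsy was started by a single injection of pilocarpine at 300 mg/kg, given after N-methylscopolamine, and the status epilepticus that followed was stopped with diazepam. Drug or vehicle was given once a day by oral gavage, for 7 days by the sample labels. The design text of the series gives a longer period, and the difference was not resolved. Epileptic mice had been screened for spontaneous seizures, and the naive mice were added apart from them as a baseline. Hippocampal RNA of each mouse was read on 1 Illumina MouseRef-8 v2 array, a chip that reads mRNA abundance as the brightness of 1 or more probes per gene. The naive mice differed from the treated mice in having had no pilocarpine, no seizures and no drug, so these parts of the difference cannot be told apart from these 2 groups alone. A further 17 epileptic mice given vehicle and 15 given PLX3397 at 30 mg/kg are used below only where a value needs them.

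PLX3397 blocks the kinase activity of Csf1R, the receptor through which microglia receive the survival signals Csf1 and Il34, and it also acts on Kit and Flt3. In the rodent hippocampus after status epilepticus, pyramidal neurons and interneurons are lost, dentate granule cells sprout new axons, astrocytes become reactive and microglia take up debris and express complement. Csf1R is expressed by cells of the myeloid lineage, and which cells the inhibitor acted on was not tested here.

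Signals were comparable between the groups. The median signal of an array was between 119.5 and 150.1 in naive mice and between 110.3 and 142 at 3 mg/kg, and between 45.1% and 49.8% and between 44.6% and 49.7% of probes were detected above the negative controls. An array's mean correlation with the others of its group was between 0.9897 and 0.9916 in naive mice and between 0.9726 and 0.9888 at 3 mg/kg. No array matched another beyond a correlation of 0.9949. In the hippocampus of these mice the dentate granule cell genes Prox1 and C1ql2 and the pyramidal neuron gene Fibcd1 were detected on all 24 arrays. None of the 15 lymphocyte genes with a probe passed the detection filter.

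After treatment at 3 mg/kg the hippocampus still differed from the naive hippocampus in many genes, mostly by small amounts. Of the 9893 genes tested, 1133 (11.5%) stood above and 1468 (14.8%) below the naive level at a Benjamini-Hochberg adjusted p under 0.05 (limma, a linear model with 1 shared estimate of the spread per gene). The difference reached 1.5-fold for 102 of the higher and 53 of the lower genes, and 2-fold for 29 and 1. When arrays were scaled to a common median in place of quantile normalization, the counts were 591 higher and 1667 lower, so that 26.2% of the called genes were higher in place of 43.6%. All 18 treated mice lay above all 6 naive mice for 161 genes (1.63%) and below all of them for 191 genes (1.93%). The signals include background, so fold changes of dim genes are understated, and levels of different genes were not set against each other. Adjusted p values below come from the same fit over all 9893 genes, and differences are given on the log2 scale with their standard error.

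**Figure D1:**
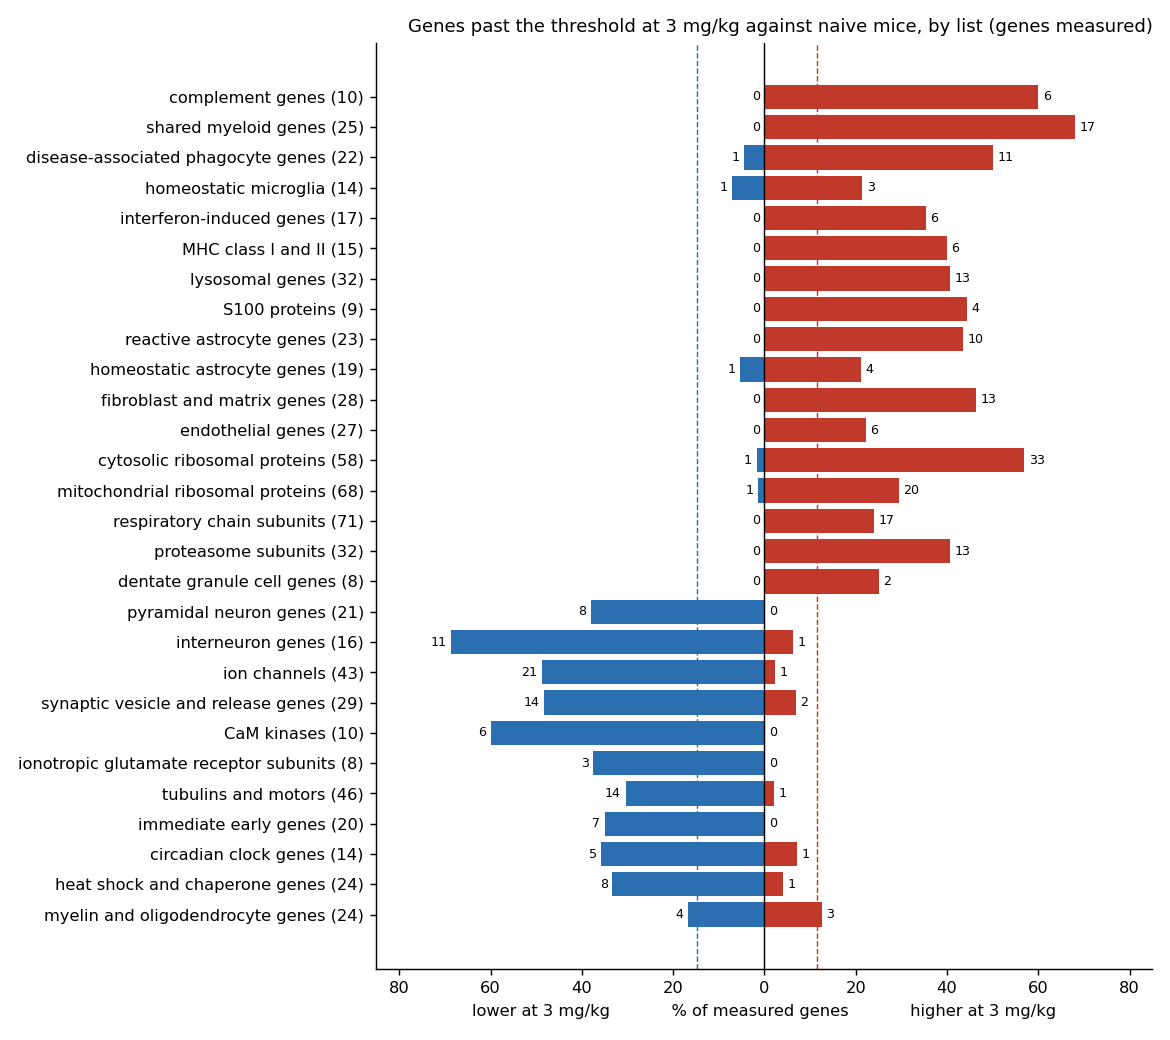
For each gene list, the bars give the percentage of its measured genes that were higher (red, right) or lower (blue, left) at 3 mg/kg than in naive mice at an adjusted p under 0.05, with the number of genes at the end of each bar and the number measured in brackets. Dashed lines mark the percentage over all 9893 genes (11.5% higher, 14.8% lower). Complement, myeloid, astrocyte, matrix and ribosomal lists lie to the right, and neuronal lists to the left.

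Complement and astrocyte genes held some of the largest differences. Of 10 complement genes measured, 6 were higher and none was lower, with a median difference of 0.59 against -0.002 over all genes. C4b, the complement component that tags surfaces for clearance and is made by reactive astrocytes and other glia, had log2 signals of 8.06, 8.45 and 8.82 (lowest, median and highest) in naive mice and 9.42, 10.45 and 10.97 at 3 mg/kg. The groups did not overlap, and C4b was 3.73-fold higher (1.90 ± 0.22, adjusted p = 5.78e-09). C1qb, a chain of the first complement component that microglia secrete, ranged from 8.53 over a median of 8.64 to 8.98 in naive mice and from 9.10 over 9.63 to 10.28 at 3 mg/kg, again with every treated mouse above every naive mouse (0.87 ± 0.16, adjusted p = 4.16e-05). C1qc (0.83 ± 0.16, adjusted p = 8.95e-05) and C1qa (0.64 ± 0.14, adjusted p = 0.000465) were higher with it. The other members past the threshold are regulators: Serping1, the inhibitor of the C1 proteases, was 1.95-fold higher and 14 of 18 treated mice exceeded all naive mice, and Clu, the chaperone clusterin, was 1.30-fold higher in 17 of 18. Because whole tissue was measured, a larger number of cells of a type and more RNA per cell cannot be told apart here or below.

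Of 23 reactive astrocyte genes, 10 were higher and none lower (median 0.304). Gfap, the intermediate filament by which reactive astrocytes are recognised, had log2 signals of 7.83, 7.92 and 8.08 in naive mice and 8.78, 9.43 and 10.44 at 3 mg/kg. Naive mice lay within a narrow band and every treated mouse lay above it, with a 2.87-fold difference (1.52 ± 0.27, adjusted p = 1.74e-05). Vim, the second filament protein of reactive astrocytes, ranged from 7.96 (median 8.30) to 8.65 in naive mice and from 8.86 (median 9.94) to 11.16 at 3 mg/kg, a 2.83-fold difference. S100a6, a small calcium-binding protein, was 2.66-fold higher (1.41 ± 0.18, adjusted p = 5.35e-08), from 8.04, 8.12 and 8.34 in naive mice to 8.99, 9.50 and 10.45. Serpina3n, a secreted protease inhibitor, was 1.83-fold higher, and 16 of 18 treated mice exceeded all naive mice. In the S100 family 4 of 9 measured genes were higher and none lower. Beside S100a6 these were S100a11 (1.07 ± 0.21), S100a1 (0.47 ± 0.12) and S100a16 (0.40 ± 0.10).

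The genes of resting astrocytes moved less. Of 19 measured, 4 were higher and 1 was lower (median 0.136), and the higher count was 2 without naive mouse 1 or without naive mouse 2. Ppp1r3c, which directs glycogen synthesis, was 1.59-fold higher in all 18 treated mice than in any naive mouse (0.67 ± 0.15, adjusted p = 0.000431). Ndrg2 was 1.40-fold higher. The single lower gene was Slc6a11, the GABA transporter GAT3 of astrocytes (-0.33 ± 0.09, adjusted p = 0.00284).

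**Figure D2:**
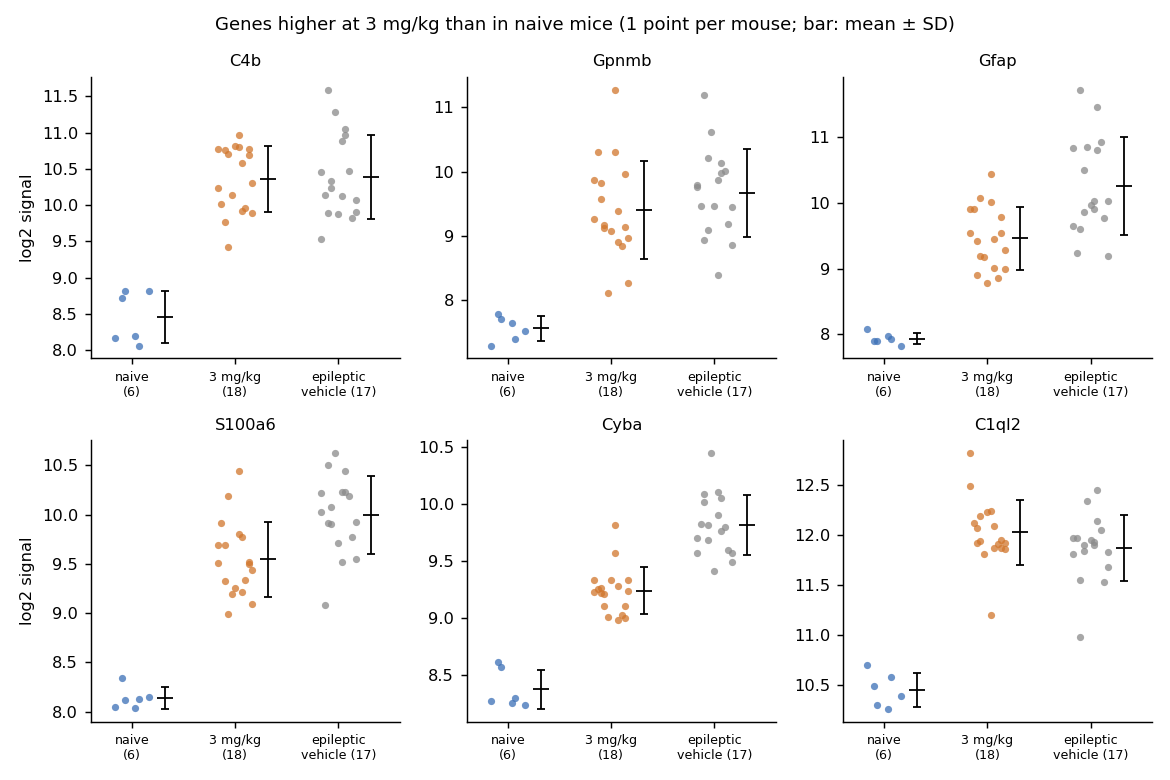
Log2 signal of 6 genes that were higher at 3 mg/kg, with 1 point per mouse for naive mice (6), epileptic mice at 3 mg/kg (18) and epileptic mice given vehicle (17); bars give the mean and SD. For each of the 6 genes the treated mice lie wholly above the naive mice, and for Gfap and Cyba their mean lies between the naive and the vehicle mean.

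Myeloid genes, which mark microglia and other macrophages, stood above the naive level. Of 25 genes shared by microglia and macrophages, 17 were higher and none lower (median 0.398, against 0.519 in epileptic mice given vehicle). The mean of the list, after centring each gene over all mice, lay between -0.49 and -0.308 in naive mice and between -0.173 and 0.337 at 3 mg/kg, with no overlap. Lyz1, one of the lysozymes of phagocytes, had log2 signals of 8.18, 8.57 and 9.42 in naive mice and 9.61, 10.26 and 11.33 at 3 mg/kg, a 3.27-fold difference (1.71 ± 0.29, adjusted p = 7.86e-06). Lyz2, the second lysozyme, went from 7.17, 7.25 and 7.65 to 7.90, 8.52 and 9.34 (1.22 ± 0.21). The lysozyme genes are near-identical copies and their probes may share signal. Cyba, a subunit of the phagocyte NADPH oxidase, went from 8.24, 8.29 and 8.61 to 8.98, 9.24 and 9.82 (0.87 ± 0.11, adjusted p = 6.55e-08). Aif1, which encodes the microglial marker Iba1, was 1.47-fold higher (0.56 ± 0.11, adjusted p = 0.000126), with 7.78, 8.04 and 8.22 in naive mice and 8.38, 8.53 and 9.09 at 3 mg/kg. Fcgr3, an Fc receptor, was 1.47-fold higher and Arhgdib 1.28-fold.

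The signature of resting microglia was changed in part. Of 14 genes measured, 3 were higher, 1 was lower and 10 did not pass (median 0.189). The labels carry running submitter numbers, and in a fit with sets of 8 consecutive numbers as a block 8 were higher and 1 was lower (median 0.264). Olfml3, a secreted glycoprotein of microglia, was 1.41-fold higher (0.50 ± 0.14, adjusted p = 0.00387), and Siglech, a microglial lectin, 1.17-fold (adjusted p = 0.00671). The call of Siglech was lost when all kept probes of a gene were averaged in place of using the brightest. P2ry13, a purine receptor, was 1.19-fold higher (adjusted p = 0.0146), a call that was lost without naive mouse 3 (adjusted p = 0.0671) and after median scaling. Golm1, a Golgi membrane protein, was the lower gene (-0.33 ± 0.11, adjusted p = 0.0181) and was not called without naive mouse 1 (adjusted p = 0.055). Sall1, the transcription factor that holds microglial identity, had a median of 7.64 in each group and a difference of 0.04 ± 0.04 (adjusted p = 0.49). Of the perivascular macrophage genes 3 of 5 were higher, a count that was 1 without naive mouse 4 or without naive mouse 5. Among them Cbr2 differed by 0.21 ± 0.06 (adjusted p = 0.00335), while Mrc1, the mannose receptor, differed by 0.14 ± 0.07 (adjusted p = 0.174).

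The drug's receptor could not be followed, since no probe was named Csf1r or Kit in the annotation used, and the Flt3 probe was not detected on enough arrays to be tested. Of the ligands of Csf1R, Csf1 differed by 0.04 ± 0.05 (adjusted p = 0.598) and Il34, which neurons make, was 1.29-fold lower (-0.36 ± 0.11, adjusted p = 0.00965). Il34 ranged from 8.11 (median 8.37) to 8.50 in naive mice and from 7.55 (median 8.04) to 8.44 at 3 mg/kg, with 12 of 18 treated mice below all naive mice.

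Genes that phagocytes raise in diseased tissue were higher as well. In this list 11 of 22 were higher and 1 lower (median 0.213). Gpnmb, a membrane glycoprotein of phagocytes loaded with debris, had log2 signals of 7.29, 7.58 and 7.78 in naive mice and 8.10, 9.21 and 11.27 at 3 mg/kg. This was a 3.61-fold difference (1.85 ± 0.30, adjusted p = 4.21e-06), and the treated mice spread over a range several times that of the naive mice without touching it. Axl, a receptor for dying cells, was 1.38-fold higher in all 18 treated mice than in any naive mouse (adjusted p = 9.83e-06). Apoe, the main lipid carrier of the brain, was 1.48-fold higher, Cd9 1.68-fold and Cd63, a tetraspanin of endosomes, 1.67-fold. The exception was Lpl, which encodes lipoprotein lipase. It was 1.70-fold lower (-0.77 ± 0.20, adjusted p = 0.00328), and 17 of 18 treated mice lay below all naive mice. Lpl is also expressed by hippocampal neurons.

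Lysosomal genes were higher in 13 of 32 cases and lower in none (median 0.106). After median scaling 7 were higher. Ctsh, a lysosomal cysteine protease, went from 8.40, 8.56 and 8.87 in naive mice to 9.01, 9.28 and 9.82 at 3 mg/kg (0.77 ± 0.12, adjusted p = 4.46e-06). Man2b1, which trims mannose from glycoproteins, was 1.5-fold higher and Gusb, beta-glucuronidase, 1.35-fold, and for both all 18 treated mice exceeded all naive mice. Many lysosomal promoters carry the letters CACGTG, the core of the element read by Tfeb and related factors. Within 250 bases before and 50 bases after the start site this motif was found on either strand in 11 of 27 lysosomal genes with a RefSeq promoter (40.7%), against 915 of 8008 tested genes (11.4%). Of the 12 lysosomal genes with a promoter that were higher at 3 mg/kg, 3 held it. They were chosen for this match after their values were seen: Lgmn (0.28 ± 0.09, adjusted p = 0.0167), Lamp1 (0.27 ± 0.08, adjusted p = 0.00958) and Ctsa (0.21 ± 0.06, adjusted p = 0.00683). Without naive mouse 5 Lamp1 was not called (adjusted p = 0.0613), and after median scaling none of the 3 was. Their windows are printed in the direction of the gene with the match in capitals, and come from build GRCm38.p6 at chr2:164833736-164833791 (plus strand) for Ctsa, chr8:13159075-13159130 (plus strand) for Lamp1 and chr12:102439111-102439166 (minus strand) for Lgmn.
Ctsa: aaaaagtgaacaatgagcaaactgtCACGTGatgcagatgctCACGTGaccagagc
Lamp1: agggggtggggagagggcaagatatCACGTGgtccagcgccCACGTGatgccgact
Lgmn: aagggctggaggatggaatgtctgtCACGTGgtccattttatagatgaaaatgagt
In each window the first copy lies upstream of the start site, and Ctsa and Lamp1 show a second one. A match describes the letters and is no proof of binding.

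Interferon-induced genes were higher in 6 of 17 cases and lower in none (median 0.201). After median scaling, or without naive mouse 5 or any 1 of 3 mg/kg mice 4, 5, 6, 7, 8, 10 and 16, 1 gene was lower. Ifitm3, a membrane protein that blocks virus entry, had log2 signals of 8.71, 8.97 and 9.53 in naive mice and 9.48, 10.01 and 10.68 at 3 mg/kg (2.06-fold, 1.04 ± 0.19, adjusted p = 2.26e-05). Ifit3, an antiviral protein, was 1.74-fold higher, from 7.32, 7.74 and 7.99 to 7.78, 8.51 and 9.41. Gbp2, a guanylate-binding protein that reactive astrocytes also express, was 1.57-fold higher with no overlap between the groups. Igtp, an immunity-related GTPase, Irf9, the DNA-binding partner of the Stats, and Ifi30, a thiol reductase of antigen processing, differed by 0.24 ± 0.07, 0.20 ± 0.06 and 0.20 ± 0.06. The interferon-stimulated response element, searched as GAAA, any 2 bases and GAAA, was found on either strand of the promoter window in 10 of 15 genes of the list with a RefSeq promoter (66.7%), against 286 of 8008 tested genes (3.57%), and in 4 of the 6 higher ones. These 4 are shown because they are the higher genes of the list that carry the element: Gbp2 at chr3:142620579-142620638 (plus strand), Ifit3 at chr19:34583348-34583407 (plus), Ifitm3 at chr7:141010708-141010767 (minus) and Igtp at chr11:58199497-58199556 (plus), in build GRCm38.p6 with the element in capitals.
Gbp2: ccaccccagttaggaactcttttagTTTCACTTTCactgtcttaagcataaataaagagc
Ifit3: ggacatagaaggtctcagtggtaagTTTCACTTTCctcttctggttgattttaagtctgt
Ifitm3: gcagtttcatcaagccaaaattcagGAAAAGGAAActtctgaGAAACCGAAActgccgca
Igtp: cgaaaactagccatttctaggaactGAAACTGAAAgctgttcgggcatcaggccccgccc
Gbp2 and Ifit3 carry it on the strand opposite to the gene, so that it reads as TTTC, any 2 bases and TTTC, and Ifitm3 holds a pair of copies at its start site.

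Antigen presentation genes were higher in 6 of 15 cases and lower in none (median 0.139). B2m, the light chain of class I molecules, was 1.62-fold higher (0.70 ± 0.12, adjusted p = 9.96e-06), from 9.88, 10.01 and 10.28 in naive mice to 10.37, 10.70 and 11.43. Of the class II genes, Cd74, the invariant chain, was 1.55-fold higher (adjusted p = 0.00144) and H2-Ab1 1.65-fold (adjusted p = 0.00871), with 13 and 15 of the 18 treated mice above all naive mice. At 30 mg/kg Cd74 was lower than at 3 mg/kg (-0.64, adjusted p = 0.000359), one of 124 genes (1.25%) that were, while 91 (0.92%) were higher. With the sets of 8 consecutive submitter numbers as a block 40 genes were lower and 27 higher between the doses. Among 17 chemokine and chemokine receptor genes 3 were higher and 1 lower than in naive mice, beside 11.5% and 14.8% of all genes. Cxcl16, a membrane-bound chemokine, was above background on 18 of 18 treated arrays and 2 of 6 naive arrays, with levels of 7.26, 7.42 and 7.75 against 7.03, 7.05 and 7.07 (adjusted p = 2.14e-05). Cx3cl1, the neuronal ligand that restrains microglia, was the lower gene (-0.41 ± 0.09, adjusted p = 0.000594). It went from 11.90, 11.98 and 12.07 to 11.37, 11.54 and 11.87, with every treated mouse below every naive mouse.

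A few genes were at background in 1 of the groups. They were picked for detection on at least 15 of 18 treated and 0 of 6 naive arrays, or on 6 naive and at most 3 treated. The detection counts therefore restate the choice, and Ccl12 and Pi16 passed the detection filter through epileptic mice alone. Ccl12, a monocyte chemokine, was detected on 0 of 6 naive arrays and 15 of 18 treated arrays. Its highest naive level was 7.01, and the treated mice ranged from 7.00 (median 7.19) to 8.77, but with this spread the difference did not pass (adjusted p = 0.237). Pi16, a peptidase inhibitor expressed by fibroblasts, was detected on 0 of 6 and 15 of 18 arrays (adjusted p = 0.0102). In the opposite direction Rasd1, a Ras-like protein induced by dexamethasone, was detected on 6 of 6 naive and 3 of 18 treated arrays (adjusted p = 5.57e-05).

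Matrix and vessel genes were higher in part, and some of them also lay above the level of epileptic mice given vehicle. Of 28 fibroblast and matrix genes, 13 were higher than in naive mice and none lower, with a median of 0.416 at 3 mg/kg and 0.184 in epileptic mice given vehicle. Bgn, the proteoglycan biglycan, had log2 signals of 8.97, 9.21 and 10.04 in naive mice and 9.85, 10.91 and 11.70 at 3 mg/kg (2.75-fold, 1.46 ± 0.30, adjusted p = 0.000176). Mgp, matrix Gla protein, was 2.62-fold higher, but the naive mice ranged from 8.28 (median 8.75) to 10.47 and only 8 of 18 treated mice lay above all of them. Ptgds, prostaglandin D synthase of the meninges and choroid plexus, was 2.52-fold higher (1.33 ± 0.27, adjusted p = 0.000185), from 9.94, 10.90 and 11.79 to 11.30, 12.23 and 12.82. Col6a1, a collagen VI chain, was 1.71-fold higher without overlap, and Aebp1 (1.11 ± 0.26) and Dcn, decorin (0.83 ± 0.17), were higher in 15 of 18 treated mice than in any naive mouse.

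Some genes passed the test against epileptic mice given vehicle too, in the direction away from health. In that comparison 1835 genes (18.5%) had a higher level at 3 mg/kg and 1676 (16.9%) a lower one. Of the 28 fibroblast and matrix genes 5 were higher and 1 lower than with vehicle, so the higher count was about the share of all genes. Slc6a13, Vtn, Apod, Fmod and Pdlim1 were picked for passing both tests. Slc6a13, the GABA transporter GAT2 of the meninges, was 2.13-fold above naive mice (1.09 ± 0.26, adjusted p = 0.000992) and also above vehicle (0.56, adjusted p = 0.0129). Vtn, vitronectin, which pericytes make, was 1.64-fold above naive mice (0.71 ± 0.19, adjusted p = 0.00268) and above vehicle by 0.55 (adjusted p = 0.000782). Apod, a lipid carrier, was 2.18-fold above naive mice (1.13 ± 0.21, adjusted p = 3.67e-05) and 0.44 above vehicle (adjusted p = 0.015). Fmod, fibromodulin, was 0.62 ± 0.18 above naive mice and 0.41 above vehicle, and Pdlim1, a cytoskeletal adaptor, 0.61 ± 0.20 and 0.47. Pdlim1 was not called against naive mice without naive mouse 5 (adjusted p = 0.0541) nor after median scaling. Among endothelial genes 6 of 27 were higher and none lower. Esam, an adhesion molecule of endothelial junctions, was higher than in naive mice (0.40 ± 0.07, adjusted p = 4.96e-05) and than in vehicle mice (0.19, adjusted p = 0.00458), and Emcn, endomucin, was 1.25-fold above naive mice in all 18 treated mice. Of 16 mural cell genes 3 were higher than in naive mice, or 5 without naive mouse 6, and 1 lower. Over all genes 11.5% were higher and 14.8% lower.

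These lists include cells at the edge of the dissected tissue. None of the 8 choroid plexus genes passed in either direction in the limma fit, where 1 was higher at an unadjusted p under 0.05 and, adjusted, 1 was higher without 3 mg/kg mouse 8. With the sets of 8 consecutive submitter numbers as a block 2 of the 8 were higher, and their median was 0.466 against 0.231. The mean of that list lay between -1.455 and 0.80 in naive mice and between -1.084 and 1.47 at 3 mg/kg. Ttr, transthyretin, its defining gene, ranged from 8.83 (median 13.80) to 14.16 in naive mice and from 10.34 (median 13.77) to 14.19 at 3 mg/kg, so that no array was without it. The submitters numbered the samples in 2 runs, the first ending at 24 and the second starting at 33, and in these Ttr differed by 1.89 and by -0.43. Within the first run 10 of the matrix genes were called and within the second 3. Slc6a13, Vtn, Fmod, Ptgds, Dcn and Aebp1 were not called against naive mice within the second run, and Pdlim1 in neither. In numbers 49 to 56, with 1 naive and 1 treated mouse, Slc6a13, Vtn and Fmod differed by -0.77, -0.09 and -0.18. There Apod and Pdlim1 differed by 0.76 and 0.19. Slc6a13 differed from naive mice by 1.36 and 0.85 in the 2 runs, Ptgds by 1.54 and 1.10, Bgn by 1.54 and 1.39 and Col6a1 by 0.77 and 0.79. The part of choroid plexus or meninges in these differences was not tested.

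**Figure D3:**
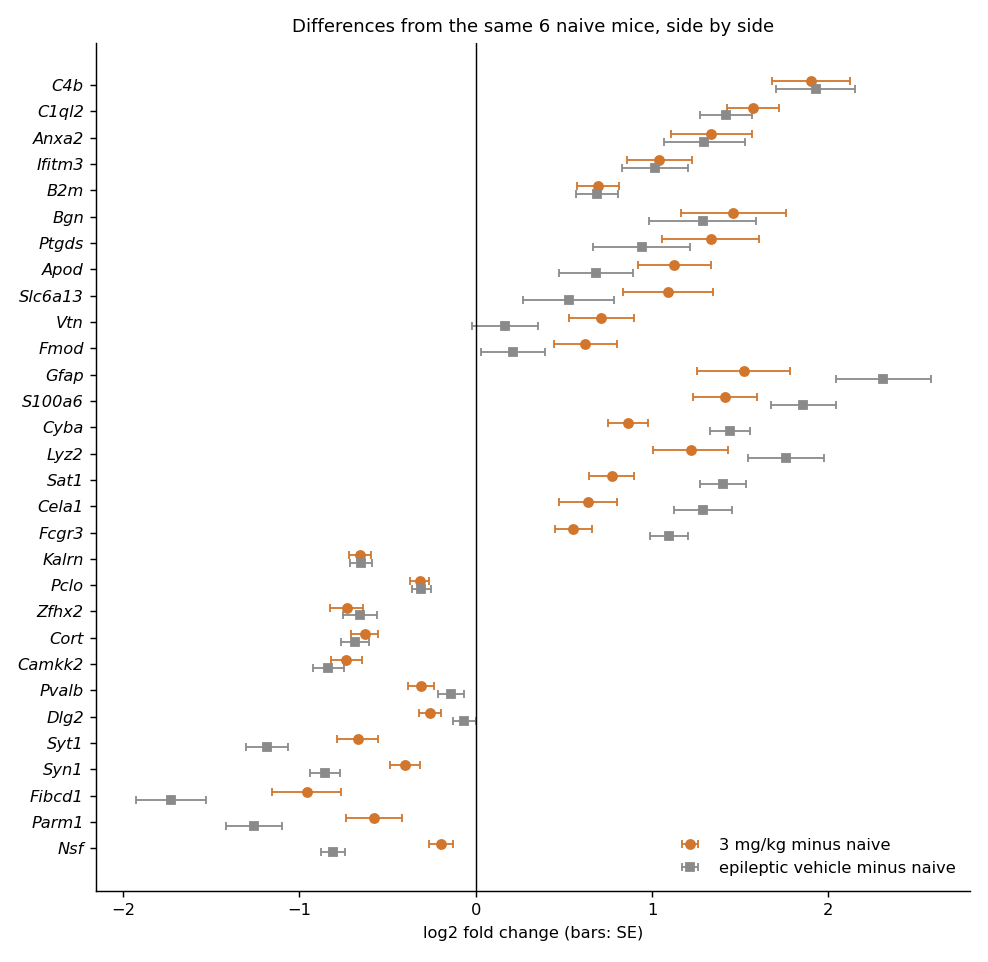
Log2 difference from the 6 naive mice, with its standard error, for epileptic mice at 3 mg/kg (circles) and epileptic mice given vehicle (squares), for 30 genes. The comparisons share the naive mice. C4b, Ifitm3 and Kalrn lie at about the same value in each, Slc6a13, Vtn and Fmod lie farther from 0 at 3 mg/kg, and Gfap, Syt1, Fibcd1 and Nsf lie farther from 0 with vehicle.

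Set beside the untreated epileptic mice, the distance from health was smaller for some genes and had similar values for others. In epileptic mice given vehicle 2232 genes (22.6%) were higher and 2619 (26.5%) lower than in the same naive mice. C4b differed from naive mice by 1.90 at 3 mg/kg and by 1.93 with vehicle, Ifitm3 by 1.04 and 1.02, B2m by 0.70 and 0.69, and Anxa2, a membrane-binding annexin, by 1.34 and 1.30. The tests of 3 mg/kg against vehicle gave adjusted p values of 0.917, 0.911, 0.97 and 0.887, which do not show that the levels were alike. For Gfap the values were 1.52 and 2.31, and the difference between 3 mg/kg and vehicle was -0.79 (adjusted p = 0.000691). Sat1, the enzyme that breaks down polyamines, differed from naive mice by 0.77 and 1.40 (3 mg/kg against vehicle -0.63, adjusted p = 2.15e-07), and Cela1, an elastase, by 0.64 and 1.29. Fcgr3 differed by 0.55 and 1.10, Cyba by 0.87 and 1.44 and Aif1 by 0.56 and 0.99, and each was lower at 3 mg/kg than with vehicle (adjusted p = 7.26e-08, 1.12e-07 and 1.6e-05). At 30 mg/kg Fcgr3 was lower again than at 3 mg/kg by a log2 value of -0.62 (adjusted p = 1.29e-07), while for Cyba and Aif1 the values were -0.05 and 0.06 (adjusted p = 0.795 and 0.764).

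Most neuronal genes that passed the test were lower. Of 21 pyramidal neuron genes 8 were lower and none higher (median -0.261). Fibcd1, a marker of CA1 pyramidal neurons, had log2 signals of 11.93, 12.05 and 12.17 in naive mice and 10.31, 11.19 and 11.63 at 3 mg/kg. All treated mice lay below all naive mice, a 1.94-fold difference (-0.96 ± 0.20, adjusted p = 0.000195), and with vehicle the difference from the same naive mice was -1.73. Mpped1, a phosphoesterase of pyramidal layers, was 1.48-fold lower without overlap (-0.57 ± 0.10). Itpka, an inositol trisphosphate kinase of dendritic spines, was lower by -0.37 ± 0.10 and Camk2n1, the inhibitor of CaM kinase II, by -0.32 ± 0.08.

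Of 16 interneuron genes 11 were lower and 1 higher (median -0.243), and 7 were lower without naive mouse 2. Cort, the neuropeptide cortistatin, had log2 signals of 7.73, 8.03 and 8.33 in naive mice and 6.99, 7.37 and 7.89 at 3 mg/kg (-0.63 ± 0.08, adjusted p = 2.41e-08). Nxph1, neurexophilin 1 (-0.43 ± 0.07), and Dlx1, a transcription factor of GABAergic neurons (-0.42 ± 0.07), were lower in all 18 treated mice than in any naive mouse. Cck, cholecystokinin, was lower in 17 of 18. Pvalb, the calcium buffer of fast-spiking interneurons, was 1.24-fold lower than in naive mice (adjusted p = 0.00134) and lower than in vehicle mice (-0.17, adjusted p = 0.0105), while vehicle against naive gave -0.14 (adjusted p = 0.121). Dlg2, a scaffold of the postsynaptic density, likewise lay 0.26 below naive mice and 0.20 below vehicle on the log2 scale.

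Ion channels were lower in 21 of 43 cases and higher in 1 (median -0.116). The list mean lay between 0.141 and 0.269 in naive mice and between -0.122 and 0.13 at 3 mg/kg, with no overlap. Scn3b, an auxiliary subunit of sodium channels, went from 9.11, 9.36 and 9.46 to 7.67, 8.43 and 8.85 (1.99-fold, -0.99 ± 0.13, adjusted p = 3.66e-08). Scn8a, the sodium channel Nav1.6, went from 7.94, 8.06 and 8.34 to 7.31, 7.63 and 7.92 (-0.51 ± 0.06, adjusted p = 3.25e-08). Kcna2, a potassium channel of axons, went from 8.26, 8.49 and 8.65 to 7.59, 7.88 and 8.28 (-0.59 ± 0.07, adjusted p = 3.25e-08). For Scn3b and Scn8a the groups did not overlap, and for Kcna2 1 treated mouse reached the naive range. The higher gene was Kcnip3, also known as the repressor DREAM (0.60 ± 0.13, adjusted p = 0.000547).

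**Figure D4:**
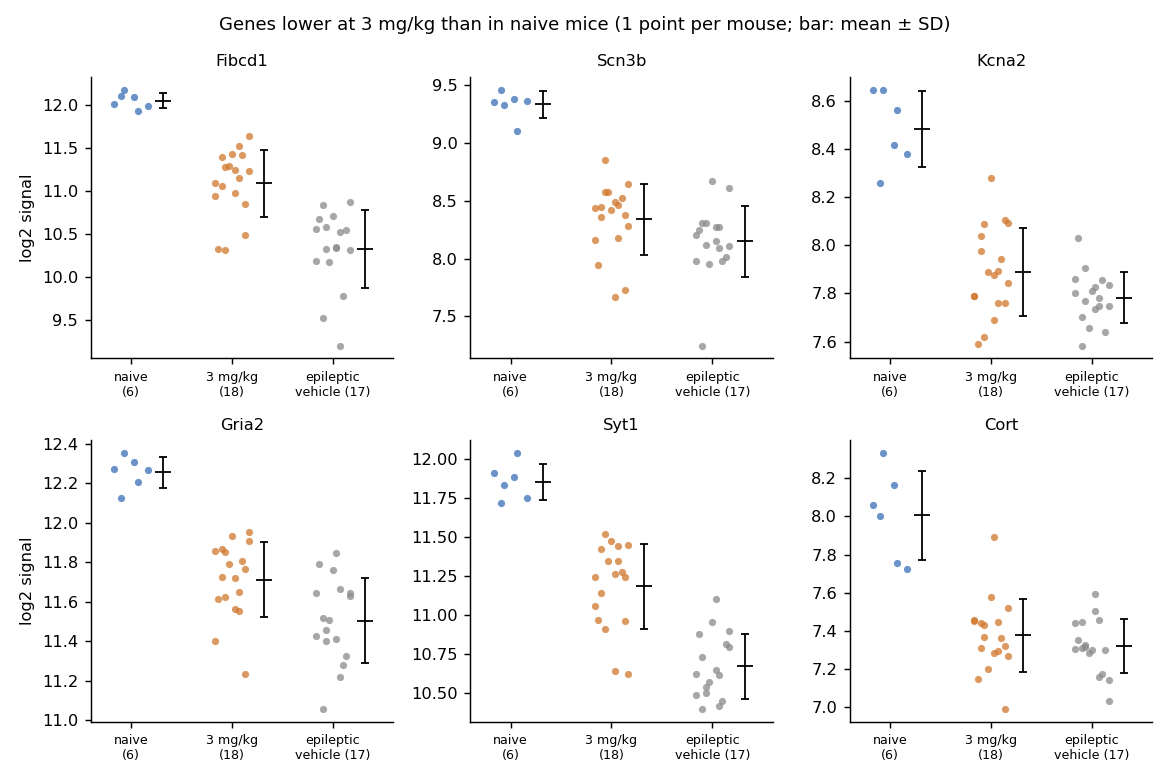
Log2 signal of 6 neuronal genes that were lower at 3 mg/kg, with 1 point per mouse for naive mice (6), mice at 3 mg/kg (18) and epileptic mice given vehicle (17); bars give the mean and SD. For Fibcd1, Scn3b, Gria2 and Syt1 the treated mice lie wholly below the naive mice, and for Kcna2 and Cort 1 treated mouse overlaps them.

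Among glutamate receptor subunits 3 of 8 were lower and none higher, and 5 were lower without naive mouse 5 and 1 was higher without naive mouse 6. Gria2, the AMPA receptor subunit that sets calcium permeability, went from 12.13, 12.27 and 12.35 in naive mice to 11.23, 11.75 and 11.96 at 3 mg/kg (1.46-fold, -0.54 ± 0.08, adjusted p = 1.14e-06). Gria1 was 1.35-fold lower (adjusted p = 0.00438). None of 5 GABA-A receptor subunits passed in either direction in the limma fit (median -0.106), where 1 was lower at an unadjusted p under 0.05 and, adjusted, 1 was lower without 3 mg/kg mouse 15. Of 29 genes of synaptic vesicles and their release 14 were lower and 2 higher (median -0.214), and the higher count was 1 without naive mouse 4, 5 or 6. Syt1, the calcium sensor of release, went from 11.72, 11.86 and 12.04 to 10.62, 11.26 and 11.52 (-0.67 ± 0.12, adjusted p = 1.56e-05). Syn1, synapsin I, was lower in all 18 treated mice than in any naive mouse (-0.40 ± 0.09), and Pclo, the active zone protein piccolo, in 14 of 18 (-0.32 ± 0.05). Nsf, the ATPase that takes SNARE complexes apart, differed from naive mice by -0.20 ± 0.07 at 3 mg/kg (adjusted p = 0.0248) and by -0.81 with vehicle. Its call against naive mice was lost without naive mouse 4 or without naive mouse 5 (highest adjusted p = 0.0749). One of the higher genes was Syt5 (0.33 ± 0.09), which was not called after median scaling.

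CaM kinases and related proteins, among them the inhibitor Camk2n1 named above, were lower in 6 of 10 cases and higher in none (median -0.294). Camkk2, the kinase upstream of CaM kinases I and IV, went from 8.76, 8.99 and 9.10 to 7.86, 8.27 and 8.59 (1.66-fold, -0.73 ± 0.09, adjusted p = 1.24e-08), without overlap. Camk2b was lower by -0.30 ± 0.09 (adjusted p = 0.0103) and with vehicle by -0.68. Of 46 tubulin, microtubule and motor genes 14 were lower and 1 higher, or 2 higher without 3 mg/kg mouse 8 and 3 with the sets of 8 as a block. Dync1h1, the heavy chain of dynein, was 1.56-fold lower (-0.64 ± 0.08, adjusted p = 7.82e-08) and Map1b 1.61-fold (-0.68 ± 0.14).

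The lower genes of the largest size outside these lists also included proteins of neurons. Pip5k1b, a lipid kinase, went from 9.59, 9.66 and 9.73 to 8.23, 8.80 and 9.29 (1.85-fold, -0.88 ± 0.11, adjusted p = 4.87e-08). Lypd1, a prototoxin that binds nicotinic receptors, was 1.96-fold lower (-0.97 ± 0.19), and Atp2b1, a plasma membrane calcium pump, 1.70-fold (-0.76 ± 0.12), both without overlap. Fgf10, a growth factor, was held between 9.16 and 9.22 in naive mice and ranged from 7.57 to 9.13 at 3 mg/kg (-0.74 ± 0.16). Celsr2, a cadherin of planar polarity (-0.75 ± 0.11), and Zfhx2, a homeobox transcription factor (-0.73 ± 0.09), were lower too. The widest separations among lower genes included Kalrn, the spine protein kalirin, from 9.50, 9.60 and 9.76 to 8.67, 8.96 and 9.15 (-0.66 ± 0.06, adjusted p = 1.24e-11), and Aak1, a kinase of clathrin adaptors, from 11.71, 11.78 and 12.02 to 10.66, 11.15 and 11.32 (-0.72 ± 0.09, adjusted p = 2.41e-08). Kalrn differed from naive mice by -0.65 with vehicle. Snhg11, a noncoding RNA abundant in neurons, was 1.78-fold lower (adjusted p = 0.00793), though only 5 of 18 treated mice lay below all naive mice and the call was lost without naive mouse 1 (adjusted p = 0.0565) and with the sets of 8 consecutive submitter numbers as a block.

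A pair of granule cell genes was higher. C1ql2, a C1q-like protein that mossy fibres release, had log2 signals of 10.26, 10.44 and 10.70 in naive mice and 11.19, 11.94 and 12.82 at 3 mg/kg. The difference was 2.98-fold (1.57 ± 0.15, adjusted p = 1.24e-11), and with vehicle it was 1.42 from the same naive mice. Prox1, the transcription factor of granule cell identity, was 1.47-fold higher in all 18 treated mice than in any naive mouse (0.56 ± 0.16, adjusted p = 0.00802). These were the 2 higher genes of 8 measured, and 6 did not pass (list median 0.011). Rprm, reprimo, known as a marker of deep cortical neurons, was 2.48-fold higher (1.31 ± 0.15, adjusted p = 1.75e-09), from 9.47, 9.88 and 9.99 to 10.23, 11.15 and 11.70. Rprm was the only higher gene of 10 neocortical genes measured, and 3 of the list were lower (median -0.106). Drd1, the dopamine D1 receptor, was 1.83-fold higher (0.87 ± 0.13), from 7.28, 7.47 and 7.64 to 7.95, 8.31 and 9.02. Plekha2, an adaptor with pleckstrin homology domains, was 2.30-fold higher with naive mice between 9.21 and 9.32 and treated mice between 10.03 and 11.03. Nupr1, a stress-induced nuclear protein, was 2.37-fold higher without overlap.

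Neuropeptide levels varied between treated mice. Npy, neuropeptide Y, which granule cells express in epilepsy, ranged from 10.33 (median 10.59) to 10.70 in naive mice and from 10.32 (median 11.55) to 13.78 at 3 mg/kg. The difference was 2.28-fold (1.19 ± 0.39, adjusted p = 0.0192), with 15 treated mice above all naive mice and 1 below them. Leaving out 3 mg/kg mice 9, 16 and 18 gave 0.86 (adjusted p = 0.0708). In the whole list of 27 neuropeptides and secreted factors 3 were higher and 3 lower, no more than the shares of all genes (11.5% higher, 14.8% lower). Without naive mouse 3 1 was higher, and with the sets of 8 as a block 5 were lower.

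Immediate early genes, which neurons switch on within minutes of firing, were below the naive level in most treated mice and far above it in a pair of them. Of 20 measured, 7 were lower and none higher (median -0.038). The list mean lay between 0.081 and 0.39 in naive mice, was 0.916 and 1.32 in 3 mg/kg mice 9 and 18, and lay between -0.173 and 0.0886 in the other 16. Egr1, a zinc finger transcription factor, had log2 signals of 10.54, 10.98 and 11.43 in naive mice and 9.19, 9.69 and 12.38 at 3 mg/kg, with 16 treated mice below all naive mice and 2 above (2.06-fold, -1.04 ± 0.31, adjusted p = 0.00805). Arc, a regulator of synaptic receptors, went from 9.12, 10.11 and 10.70 to 8.45, 8.88 and 11.85, again with 16 below and 2 above (-0.87 ± 0.31, adjusted p = 0.0309). The call of Arc was lost without naive mouse 1, 2 or 3 (highest adjusted p = 0.112). It was also lost when only these 2 groups were fitted, when only their 24 arrays were normalized and fitted, without a detection filter, and within the second run. Dusp6, a phosphatase that ends Erk signalling (-0.65 ± 0.18), Homer1, a synaptic scaffold (-0.48 ± 0.10), and Nr4a2, an orphan nuclear receptor (-0.46 ± 0.10), were lower as well.

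Mice 9 and 18 were left out in a further fit, a choice made after seeing the data. They held the highest list means and the highest Egr1 and Arc levels of the treated mice. The count was then 10 lower of 20 with a median of -0.198, and Egr1 differed by -1.32 and Arc by -1.17. Removing the highest values had to move the treated means down, so this fit is no separate test of lower levels. With vehicle Egr1 differed from the same naive mice by -1.65 and Arc by -0.68 (adjusted p = 0.0658 for Arc). Within the first of the 2 numbered runs 9 immediate early genes were lower, and within the second, which holds mice 9 and 18, 1 was.

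**Figure D5:**
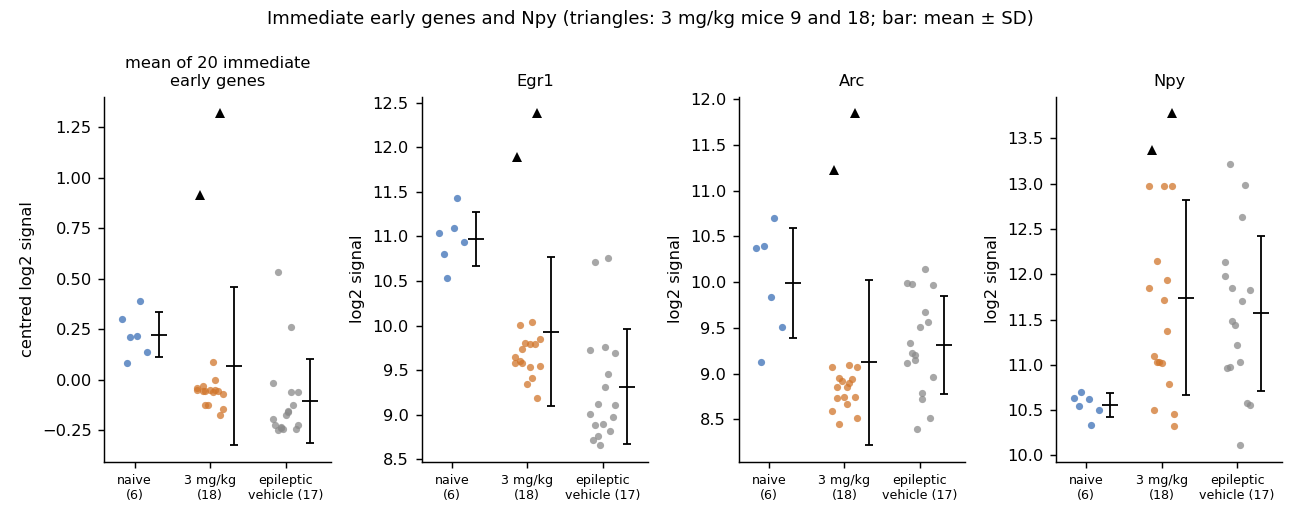
Mean of 20 immediate early genes (centred log2 signal) and log2 signal of Egr1, Arc and Npy, with 1 point per mouse in naive mice (6), mice at 3 mg/kg (18) and epileptic mice given vehicle (17); bars give the mean and SD, and triangles mark 3 mg/kg mice 9 and 18. These 2 mice lie above all others for Egr1 and Arc and are the highest for Npy, while the other 16 treated mice lie below the naive mice for Egr1 and Arc.

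Clock and chaperone genes were lower in part. Of 14 clock genes 5 were lower and 1 higher (median -0.135). Per2 was 1.58-fold lower (-0.66 ± 0.14, adjusted p = 0.000283), Cry2 1.26-fold (adjusted p = 8.35e-07) and Per3 1.13-fold, the last at the edge of detection with 8 of 18 treated arrays above background. Nr1d1, the repressor Rev-erb alpha, was 1.25-fold higher (adjusted p = 0.000297). Of 24 chaperones 8 were lower and 1 higher, and 5 were lower without naive mouse 4 or without naive mouse 6. Pdia4, a disulphide isomerase of the endoplasmic reticulum, was lower in all 18 treated mice (-0.44 ± 0.07, adjusted p = 1.12e-06), and Hsp90b1, its resident Hsp90, in 13 of 18.

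Genes of protein and energy production were slightly higher, in numbers that depended on the scaling. Of 58 cytosolic ribosomal proteins 33 were higher and 1 was lower (median 0.215, against 0.517 with vehicle), and after median scaling 22 were higher and 1 was lower. Rps3 was 1.42-fold higher (0.51 ± 0.10, adjusted p = 5.63e-05), from 11.24, 11.55 and 11.65 to 11.56, 11.96 and 12.36, and Rps9 1.30-fold without overlap. Rps15a was the lower one (-0.20 ± 0.07, adjusted p = 0.0197) and was not called without naive mouse 4 or 5 (highest adjusted p = 0.0788). Mitochondrial ribosomal proteins were higher in 20 of 68 cases and lower in 1, respiratory chain subunits in 17 of 71 and 0, and proteasome subunits in 13 of 32 and 0. These 3 lists depended on the scaling, with 3, 4 and 2 higher after median scaling. The respiratory chain count was 31 with the sets of 8 consecutive submitter numbers as a block, 9 without naive mouse 1 and 10 without naive mouse 2, and 3 mitochondrial ribosomal proteins were lower without naive mouse 6. Mrpl17 was 1.27-fold higher without overlap. Rpl29 held the largest difference of this group but was read differently between mice: its level lay between 8.77 and 8.82 in 5 naive mice and at 10.92 in the sixth, and between 8.79 and 11.53 at 3 mg/kg (1.33 ± 0.42, adjusted p = 0.0139). Rpl29 was not called with the sets of 8 consecutive submitter numbers as a block.

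Few cholesterol and metal genes passed the test, and myelin genes passed at about the share of all genes (11.5% higher, 14.8% lower). Of 24 myelin and oligodendrocyte genes 3 were higher and 4 lower (median -0.009), counts that fell to 1 higher without naive mouse 1 or 6 and to 2 lower without naive mouse 4. One of 17 cholesterol synthesis genes was higher, with 2 at an unadjusted p under 0.05, and none was called without naive mouse 1, 2, 4, 5 or 6, without 3 mg/kg mouse 9, 14 or 18, after median scaling or with the sets of 8 as a block. None of 12 metallothionein and iron genes was called in the limma fit, with 3 higher and 1 lower at an unadjusted p under 0.05, and without naive mouse 3 each of these lists had 2 higher.

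Differences followed gene length. Tested genes were cut by genomic span into 4 classes of equal size. In the shortest class (median 4.5 kb) 467 were higher and 128 lower, with a median difference of 0.036. In the following classes (14.2, 31.4 and 100 kb) the counts were 305 and 257, 215 and 389, and 146 and 694, with medians of 0.012, -0.014 and -0.054. Neuronal genes are long and ribosomal genes short, and the part of length in the lists was not tested. Treated mice also varied more. The SD was larger at 3 mg/kg than in naive mice for 7431 of 9893 genes, with a median of 0.122 against 0.087, and it was 0.122 in epileptic mice given vehicle.

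Both numbered runs held mice of each group, with 3 naive and 8 treated mice in the first and 3 and 10 in the second. Among the sets of 8 consecutive numbers, only those from 9 to 16, 17 to 24 and 49 to 56 held both groups. Within the first run 476 genes were higher and 744 lower, and within the second 386 and 680. All 2601 called genes had the same sign in each run, but they had been called over both runs together. That choice made an equal sign likely beforehand. A test of whether the difference itself changed between the runs called 0 of 9893 genes (limma), with 150 at an unadjusted p under 0.05. With 3 naive mice in each run it could miss such changes, and 0 calls do not show that the runs were alike. C4b differed from naive mice by 2.01 and 1.79 in the runs, Gfap by 1.51 and 1.54, C1ql2 by 1.62 and 1.55, Scn3b by -0.82 and -1.14 and Fibcd1 by -0.86 and -1.04. For Egr1 the values were -1.48 and -0.68 and for Arc -1.58 and -0.20.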

How the data were processed

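Hippocampal RNA of 56 mice was hybridized to 56 arrays, 1 per mouse. The sample titles gave the group and the replicate number. Nothing in the labels says more than that these were separate mice, so p-values measure the spread between them. The authors deposited a table of probe intensity, extracted with GenomeStudio 2011.1 without normalization, with a detection p-value beside each intensity that sets it against negative control probes. A second deposited table holds the authors' own log2 values, quantile normalized with lumi. It matched the values used here within 0.044 and served as an alternative. All columns matched a labelled sample.

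Intensities were transformed to log2 and quantile normalized over all 56 arrays. A probe was kept when 6 or more arrays had a detection p below 0.05 for it, which held for 14058 of 25697 probes, 13265 of them with a gene. The platform annotation gave 1 gene to 23978 probes and listed none for 1719. Symbols were updated through a RefSeq table of assembly GRCm38.p6 for 23962 probes by gene identifier and 9 by accession, and 7 kept the annotation's symbol. For the 2471 genes with several kept probes the brightest was used, and 9893 genes were tested. Group means were fitted with limma 3.58.1 (R 4.3.3), lmFit and eBayes, over all 4 groups, and p-values were adjusted by Benjamini-Hochberg over all genes at a threshold of 0.05. Tested on simulated data with 200 changed genes in the comparison of 3 mg/kg with naive mice, the fit recovered 21, 46, 48 and 50 of 50 genes at log2 changes of 0.2, 0.4, 0.8 and 1.2. The number of arrays limits the precision, above all the 6 naive ones.

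Genes were named by rule: the largest differences, the members of smallest p in each list and those opposite to most, genes past the threshold against vehicle as well, genes detected in 1 group alone, the widest separations, and genes tied to the drug's target. The comparison, the members and the lists were chosen with earlier results of these data known. Promoter windows came from RefSeq and were matched by symbol for 8008 of 9893 genes. Alternatives were background correction, the authors' table, scaling, filters, probe averaging, array weights, blocks of submitter numbers, the replicate number as a block and leaving out mice. The submitter numbers are running numbers in the labels, grouped in sets of 8 and in 2 runs, and stand for no stated batch.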

Additional observations from a re-analysis of the deposited data

Results flagged for a closer look

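Among the 6 naive mice 1 array stood apart from the other 5 for 7 of the 132 genes named or plotted. Chance flags about 1 in 20 such groups. The gap to the nearest array, as a share of the group's range, was 0.976 for Rpl29, where naive mouse 5 stood at 10.92 and the others between 8.77 and 8.82. It was 0.716 for Fcgr3 (mouse 6 at 8.33, others 8.13 to 8.19), 0.684 for Gbp2 (mouse 6 at 7.93, others 7.68 to 7.76) and 0.633 for S100a6 (mouse 6 at 8.34, others 8.04 to 8.15), so that naive mouse 6 was the highest for each of these 3 genes. It was 0.644 for Siglech (mouse 2 at 7.54, others 7.31 to 7.39), 0.639 for Rprm (mouse 1 lowest at 9.47, others 9.80 to 9.99) and 0.639 for Scn3b (mouse 2 lowest at 9.11, others 9.33 to 9.46).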

How the results depend on the processing

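The 127 named or plotted genes past the threshold kept their sign in each of the 41 alternatives that gave them a value, and 70 of them kept their call in each. The stricter detection filter tested 124 of the 127. Median scaling lost 6 of these calls, the fits within the first and second run of submitter numbers lost 33 and 43, and 8 genes were lost in at least 1 fit that left out a single mouse. Leaving out 1 mouse at a time gave 922 to 1178 higher and 1203 to 1520 lower genes at 3 mg/kg against naive mice, and 61 to 140 higher and 83 to 153 lower genes at 30 mg/kg against 3 mg/kg, the 140 without 3 mg/kg mouse 15. Median scaling gave 591 higher genes against naive mice, 1291 higher with vehicle against naive, 2939 higher and 768 lower at 3 mg/kg against vehicle, and 26 and 75 at 30 against 3 mg/kg. Within the first run 476 and 744 genes were called against naive mice and 4 and 2 between the doses. Within the second run the counts were 386 and 680 against naive mice, 918 and 1051 against vehicle and 20 and 25 between the doses; the runs hold fewer mice. Between the doses, array weights gave 166 and 202, the sets of 8 as a block 27 and 40, the runs as a block 81 lower, and leaving out 3 mg/kg mice 9, 16 and 18, chosen after seeing the data, 171 and 217. For the alternatives other than fewer mice the cause was not tested. Replicate numbers did not pair the groups (correlations of same-numbered deviations between -0.202 and 0.099), and with the replicate block 1171 genes were higher and 1446 lower against naive mice, with Il34 not called. Signals near background and 6 naive mice limit small differences.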
